A study of Schizosaccharomyces pombe with 50 samples.

Results

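The genes that copy and mend the chromosomes were examined in fission yeast, *Schizosaccharomyces pombe*, that had stopped dividing. The members are the 47 genes of 6613 listed whose name is mcm, orc, psf, sld, rfc, ssb or rad followed by digits. They comprise 6 MCM helicase subunits, 6 origin recognition complex subunits, 4 GINS subunits with Sld3, 5 subunits of replication factor C, 3 of the single-strand binding protein RPA, and 22 rad genes. All 47 carried the same name in RefSeq and all 47 were tested with every antibody.

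Quiescent (Q) cells had spent 24 h in PMG medium without nitrogen, and vegetative (V) cells were in mid-log growth in PMG. Both were strain Hu3112 (mat1-M smt-0 pht1-myc), so every sample carried the Myc tag through which the histone variant H2A.Z was precipitated. Chromatin immunoprecipitation with sequencing (ChIP-seq) was done in triplicate in each state against H3K4me3, H3K9ac, H3K9me2, H3K9me3, histone H3, H2A.Z, and RNA polymerase II phosphorylated at serine 5 (S5) or serine 2 (S2), giving 48 libraries.

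Replication begins where the origin recognition complex loads the MCM ring onto DNA. GINS and Sld3 help turn that ring into an active helicase, replication factor C loads the sliding clamp, and RPA coats the exposed single strands. The rad genes were named for radiation-sensitive mutants: Rad3 with Rad26 is the ATR checkpoint kinase and its partner, Rad1 and Rad9 belong to the checkpoint clamp that Rad17 loads, and Rad52, Rad54, Rad55 and Rad57 act in homologous recombination. S5 phosphorylation of the polymerase marks early transcription and S2 phosphorylation marks elongation, while H3K4me3 and H2A.Z are typical of the first nucleosomes of a gene.

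Each gene has 2 windows in the files. The ORF window runs over the gene with 200 bp on either side, and the 400 bp TSS window sits at the lower coordinate of the same interval. It therefore lay at the start side of the 18 members on the plus strand, and held the annotated start of 15 of them, but it held the end of all 29 on the minus strand. The windows of rad3, rad57 and orc2 ended 731, 340 and 5 bp before the annotated start. Among the 31 members with more than 1 exon, many ORF windows covered little beyond the lowest exon: for 23 members the window held under 90% of the gene, down to 7.04% for rad50. In those cases it shows the 5′ part of a plus-strand gene and the 3′ part of a minus-strand gene, and 31 of the 47 windows also overlapped another coding gene. The windows and RefSeq annotation are of different assemblies (ASM294v2 and ASM294v3), and 4118 ORF windows began exactly 200 bp below the RefSeq gene of the same identifier. No 36-base stretch of any member gene was found again in the genome.

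Values are the deposited normalized reads, which are relative: the median window changed by less than 0.03 on the log2 scale in ORF windows of every antibody, so a change in total amount per cell is not seen. Recovered reads per library ranged between 856936 and 20673131 over the ORF windows. A set of libraries stood apart. The replicate 1 libraries of Q cells were alike whatever the antibody, with a mean rank correlation of 0.963 in reads per kb over the ORF windows, against 0.384 and 0.314 for Q replicates 2 and 3 and 0.243, 0.190 and 0.170 for the V replicates. In addition, the Q replicates 2 and 3 of Pol II S5 were closer to each other than read sampling alone gives, with a chi-square of 0.876 per degree of freedom over the ORF windows. Those of S2 were about as close as read sampling alone gives (0.980). Each pair counts as 1 sample in n, although the S5 and S2 p-values below take them as separate libraries unless stated. The list of 14 genes known for induction by nitrogen starvation, taken as a check of the Q label, had no call in S5. Among all windows 5.17% rose and 0.714% fell. The median S5 log2 fold change of the list was 0.03. By the adjusted p alone it had 2 increases and 3 decreases (26.4% and 24.7% of all windows). H3K4me3 was called higher at 7 of the 14 and lower at 0 (19.4% and 13.8% of all windows). H2A.Z was called higher at 4 (1.17% of all windows) and H3 at 1 (1.38%).

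In these relative values RNA polymerase II changed little at the replication and repair genes, as at most windows. No ORF window of the 47 passed the threshold (limma, Benjamini-Hochberg adjusted p below 0.05 with a log2 fold change beyond 1) for S5 or S2, in either direction. Among all windows, 5.17% rose and 0.714% fell for S5, and 1.44% rose and 0.0912% fell for S2. An unadjusted p below 0.05, whatever the fold, was reached by 18 members for S5 and 13 for S2, and edgeR and DESeq2 likewise called 0. The members' median log2 fold change was 0.01 for S5, against 0.00 for all windows, and -0.02 for S2, against 0.01.

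Smaller S5 differences passed the adjusted p alone at 14 members, 7 in each direction, where 26.4% of all windows rose and 24.7% fell by that measure. For S2, 2 rose and 5 fell, against 8.74% and 10.9% of windows. With the Q replicates 2 and 3 taken as 1 library, 10 members rose and 7 fell for S5, against 26.1% and 25.5% of windows. For S2 only psf3 and rad9 fell, against 2.28% of windows, and 0 members rose, against 1.79%. Without replicate 1, S5 rose at 14 members and fell at 14, where 38.2% and 37.3% of windows did. Without replicate 2 it rose at 4 and fell at 5, where 17.3% and 15.8% of windows did. Without replicate 3 the member counts were the same, beside 16.8% and 15.7% of windows.

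The 6 MCM genes, subunits of the replicative helicase, had nearly level S5 in their ORF windows. In the window of mcm3 it was 3106, 2857 and 2800 normalized reads in the Q libraries, against 2894, 3178 and 3162 in the V libraries. The groups overlapped, and the log2 fold change was -0.08 ± 0.08 (SE, adjusted p = 0.475, limma). The subunits lay between this value and 0.15 for mcm6. Without replicate 1, mcm2, mcm3, mcm4 and mcm5 passed the adjusted p with log2 fold changes of -0.15, -0.16, -0.11 and -0.16. Per kb, the 6 genes had 634 to 682 S5 reads in Q cells and 575 to 719 in V cells. This placed mcm3 at the 78.6 percentile of coding windows in Q cells and at the 73.5 percentile in V cells. In the 400 bp windows, which hold the gene end at mcm2, mcm3, mcm6 and mcm7, the median S5 change was -0.32. There 3 of the 6 fell by the adjusted p, where 23.8% of TSS windows did, and mcm2 was lowest at -0.67.

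The largest S5 difference was a decrease at psf3, a GINS subunit (chromosome I, 527582 to 528264, minus strand). It had 516, 513 and 463 normalized reads in Q libraries, against 1036, 854 and 910 in V libraries. All Q values were below all V values, and the log2 fold change was -0.90 ± 0.08 (SE, adjusted p = 0.00429, limma). S2 fell as well, with 596, 682 and 623 in Q libraries, against 979, 1038 and 1231 in V libraries, a log2 fold change of -0.77 ± 0.10 (adjusted p = 0.0134, limma). Histone H3 in the same window rose by 0.57 ± 0.09 (adjusted p = 0.0246, limma). Relative to H3, the S5 decrease was -1.48 and the S2 decrease -1.34, both past the fold threshold. The window covers 44.1% of psf3, its 3′ part, so the start of the gene was not measured in it.

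GINS genes did not move as a block in S5. Besides psf3, psf2 fell by 0.36 and psf1 fell by 0.30, whereas sld5, the remaining GINS subunit, rose by 0.30 and sld3, which brings Cdc45 to the origin, rose by 0.29. All 5 passed the adjusted p. In the window of sld5 S5 was 663, 703 and 670 in Q libraries, against 566, 535 and 555 in V libraries, without overlap. Relative to H3 the decreases at psf1 and psf2 were -0.01 and -0.20 and no longer passed.

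The largest S5 increase was at orc4, the origin recognition subunit that in this yeast carries AT-hook motifs (chromosome II, 2025163 to 2028876, plus strand). It had 2663, 2338 and 2234 normalized reads in Q libraries, against 1874, 1810 and 1787 in V libraries, with no overlap. The log2 fold change was 0.40 ± 0.06 (SE, adjusted p = 0.00853, limma). The increase at orc3 was 0.35 ± 0.05, and orc1, orc2, orc5 and orc6 lay between -0.20 and 0.11 without passing the adjusted p. In S2 the 6 ORC genes ranged from -0.24 to 0.16, and none passed.

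Among the rad genes, S5 fell at rad25, rad9 and rad52 and rose at rad15, rad54 and rad13. The 14-3-3 gene rad25 had 1102, 1167 and 1173 in Q libraries, against 1550, 1554 and 1608 in V libraries, a log2 fold change of -0.45 ± 0.05 (adjusted p = 0.00473, limma). The recombination mediator gene rad52 had 1211, 1362 and 1382 in Q libraries, against 1646, 1894 and 1771 in V libraries, and its log2 fold change was -0.43 ± 0.05 in S5 and -0.40 ± 0.06 in S2. In both genes the groups were apart. The rad52 window overlaps 2 other coding genes, among them izh3, which starts 26 bp from the end of rad52. The study lists izh3 as repressed in Q cells, and its part in the rad52 values was not tested. The gene for Rad54, a DNA translocase of the recombination pathway of Rad52, moved the other way. It had 2333, 2189 and 2170 in Q libraries against 1796, 1840 and 1856 in V libraries, a log2 fold change of 0.28 ± 0.06. The nucleotide excision repair genes rad15 and rad13, whose products match human XPD and XPG, had log2 fold changes of 0.34 and 0.24. In S2 the largest increase was at rad21, the cohesin subunit gene, at 0.70 ± 0.18 (adjusted p = 0.0438, limma), with 464, 445 and 408 in Q libraries against 354, 263 and 208 in V libraries. That window covers 12.9% of rad21, and the adjusted p no longer passed (0.114, limma) with Q replicates 2 and 3 taken as 1 library.

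**Figure D1:**
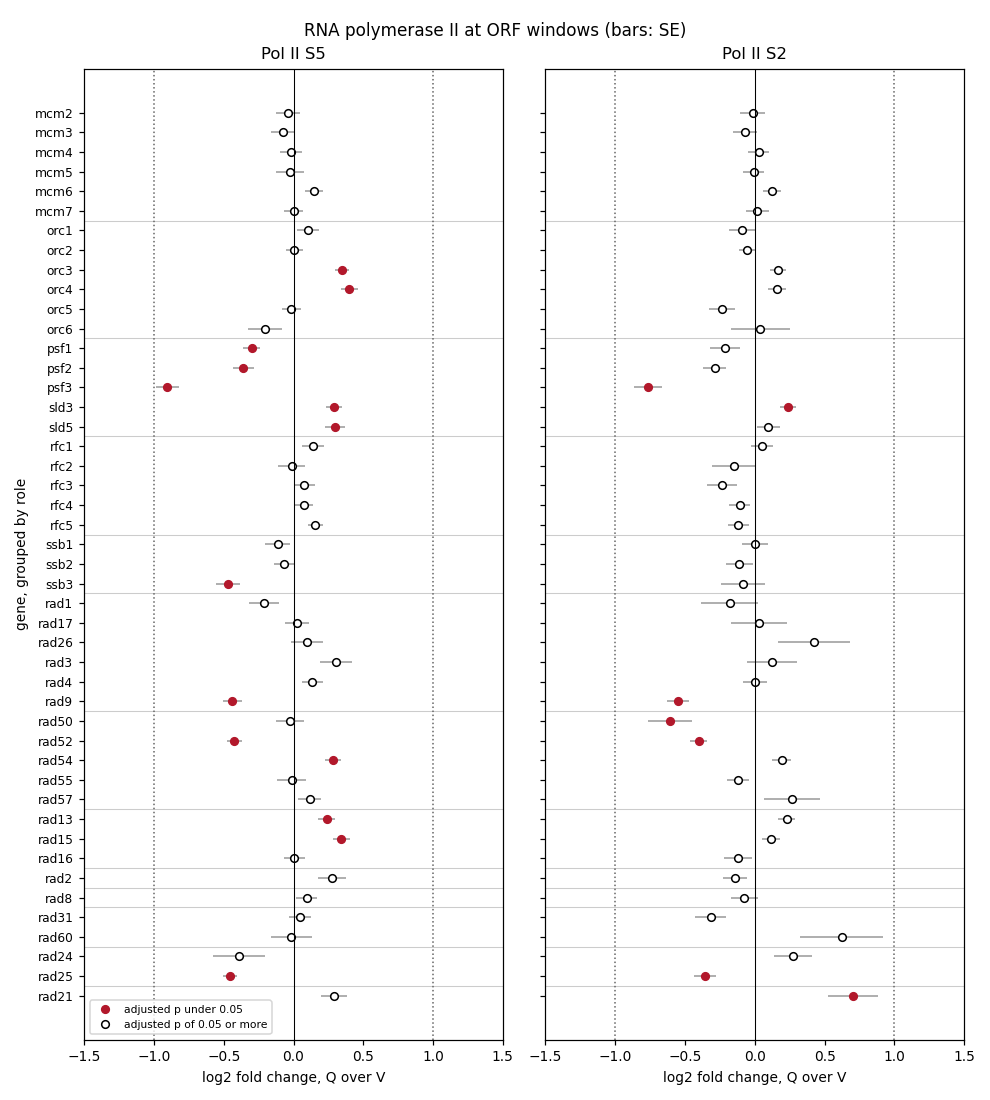
Log2 fold change of Pol II S5 (left) and S2 (right) in Q over V cells at the ORF window of each gene shown, grouped by role, with bars for the SE; filled points have an adjusted p below 0.05 and dotted lines mark a log2 fold change of 1 in either direction. No point crosses a dotted line, and psf3 lies farthest to the left in both panels, at -0.90 for S5 and -0.77 for S2.

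The replication factor C genes stayed between -0.01 and 0.16 in S5, and none of the 5 passed the adjusted p. Of the RPA genes only ssb3, for the small subunit, fell, with 265, 289 and 276 in Q libraries against 381, 390 and 378 in V libraries (log2 fold change -0.47 ± 0.08, adjusted p = 0.0122, limma). The windows of ssb1 and ssb2, for the large and middle subunits, had -0.11 and -0.07 with overlapping groups.

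H3K4me3 had the most calls at members. In ORF windows it rose at 6 of 47 members and fell at 6, while 19.4% of all windows rose and 13.8% fell. The members' median was 0.08, against -0.01 for all windows. Without replicate 1, 6 members rose and 5 fell, beside 1326 and 652 of 6576 windows. Without replicate 3, 8 members rose and 9 fell, beside 1266 and 1068 of 6577 windows. The genes that rose were rfc3, rad9, rfc5, psf3, rad8 and rad2, all on the minus strand. The genes that fell were rad26, psf1, rad60, rad57, ssb3 and rad17, on the plus strand but for ssb3.

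The largest increase was at rfc3, a clamp loader subunit (chromosome I, 4033945 to 4034716, minus strand). H3K4me3 was 353, 312 and 292 normalized reads in Q libraries, against 107, 53.1 and 61.4 in V libraries, and the log2 fold change was 2.16 ± 0.22 (SE, adjusted p = 0.000842, limma). The checkpoint clamp gene rad9 had 416, 369 and 311 in Q libraries, against 135, 70.2 and 70.7 in V libraries, a log2 fold change of 2.04 ± 0.20. In both genes V replicate 1 was the highest of its group, and the windows cover only the 3′ part of the gene, 33.9% of rfc3 and 33.3% of rad9. S5 in the same windows had log2 fold changes of 0.08 at rfc3 and -0.44 at rad9.

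Smaller increases were found at rfc5 (1.30 ± 0.11), psf3 (1.29 ± 0.15), rad8 (1.12 ± 0.08), which encodes a ubiquitin ligase of postreplication repair, and rad2 (1.12 ± 0.14), the flap endonuclease gene that trims Okazaki fragments. Only rad8 had a window holding the whole gene: it had 2251, 2045 and 1804 in Q libraries, against 1005, 837 and 949 in V libraries. At psf3 the increase in H3K4me3 stood beside the decrease in S5 and S2 of the same window. The call at rad2 is lost without replicate 1 (0.95) and that at psf3 relative to H3 (0.71).

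The largest decrease was at rad26, for the partner of the Rad3 kinase (chromosome I, 4450389 to 4451045, plus strand). It had 182, 192 and 234 in Q libraries, against 446, 486 and 501 in V libraries, a log2 fold change of -1.24 ± 0.12 (adjusted p = 0.000721, limma). The rad3 gene itself, covered whole, differed by 0.97 ± 0.06 in the other direction, with 5422, 4780 and 4230 in Q libraries against 2811, 2275 and 2260 in V libraries. The window of rad26 covers 16.0% of the gene, at its start.

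At psf1 the window covered the whole gene, and H3K4me3 was 407, 500 and 591 in Q libraries, against 1155, 1119 and 1128 in V libraries (-1.20 ± 0.12, adjusted p = 0.000817, limma). This was the only decrease called at a window with the full gene in it. The other decreases were at rad60 (-1.18), of the SUMO pathway, rad57 (-1.15), ssb3 (-1.10) and rad17 (-1.07), with Q values below all V values in each. The calls at psf1 and rad17 are lost relative to H3 (-0.91 and -0.94), that at ssb3 without replicate 1 (-0.96), and that at rad17 also without replicate 2 (-0.99).

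**Figure D2:**
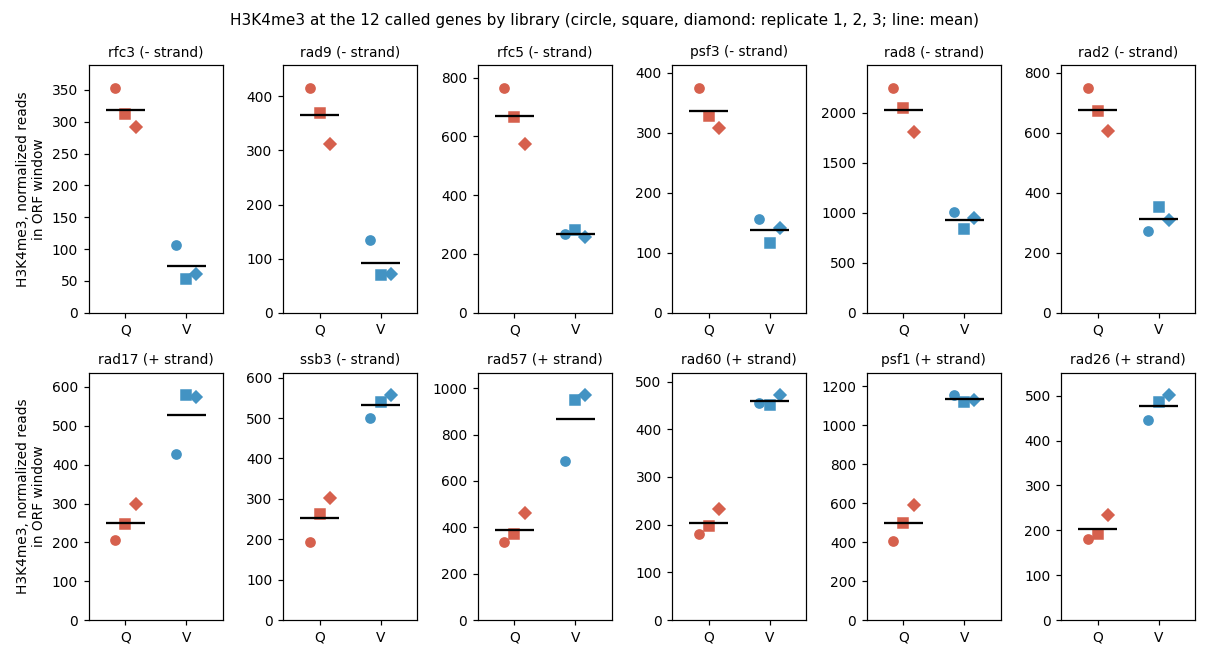
Normalized H3K4me3 reads in the ORF window (vertical axis, starting at 0) of the 12 called genes, with the 3 Q libraries left of the 3 V libraries, 1 symbol per replicate and a line at each mean. The upper row holds the genes that rose, led by rfc3 with Q values of 292 to 353, and the lower row those that fell, with rad26 last; in every panel the groups are apart.

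The H3K4me3 calls were next counted by the part of the gene inside the ORF window. Of the 12 members whose window held the 5′ part, 0 rose and 4 fell, while 4.69% of such windows of all coding genes rose and 57.0% fell. Of the 11 with the 3′ part, 5 rose and 1 fell, against 39.0% and 3.85%. Of the 24 with the whole gene, 1 rose and 1 fell, against 13.1% and 3.42%. The members' medians were -0.85, 0.95 and 0.23 in these classes, beside -1.07, 0.62 and 0.10 over all coding windows of the same class. Similarly, the 21 members with windows over 2000 bp had a median of 0.32 and the 15 with windows under 1000 bp one of -0.67, beside 0.33 and -0.96 over coding windows.

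**Figure D3:**
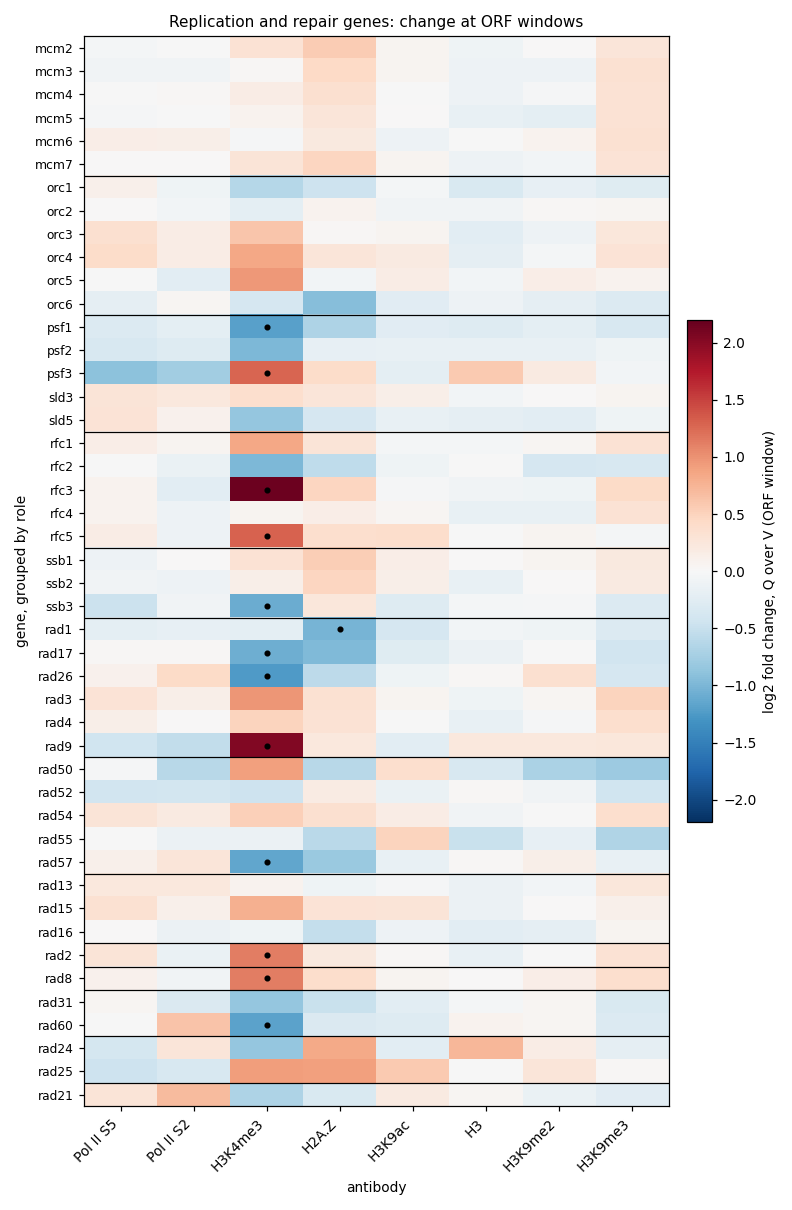
Log2 fold change of Q over V at the ORF window of each gene shown (rows, grouped by role) for each antibody (columns), from blue (lower in Q) to red (higher in Q), with a dot where the change was called. The dots lie in the H3K4me3 column, 6 red and 6 blue, and at rad1 in the H2A.Z column.

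In the 400 bp windows at the start side of plus-strand genes H3K4me3 was mostly lower in Q cells, at members as at other genes. Among the 18 plus-strand members 0 rose and 4 fell past the threshold, where 19.2% of plus-strand windows rose and 34.3% fell. The median was -0.77, against -0.75 for all of them, and 16 of the 18 passed the adjusted p with a decrease (64.8% of plus-strand windows did). The exceptions were rad1, at -0.26, and rad31, at 0.04. These shares include non-coding genes, whereas all members are coding. Of the coding plus-strand windows alone, 10.3% rose and 41.2% fell past the threshold. Their median was -0.90, and 76% passed the adjusted p with a decrease. Over the 15 windows that hold the annotated start, 0 rose and 4 fell, 13 passed the adjusted p with a decrease, and the median was -0.86. Such windows were not counted over all genes, and the shares of coding plus-strand windows above are the nearest comparison.

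The 4 genes called were mcm4, psf1, orc1 and mcm5. At mcm4 the start window had 142, 157 and 180 H3K4me3 reads in Q libraries, against 535, 467 and 451 in V libraries, a log2 fold change of -1.60 ± 0.17 (adjusted p = 1.66e-10, limma). At psf1 it had 106, 147 and 175 in Q libraries, against 485, 408 and 389 in V libraries, a log2 fold change of -1.60 ± 0.15. The start of orc1 had 90.3, 103 and 131 in Q libraries, against 279, 307 and 281 in V libraries (-1.43 ± 0.12). That of mcm5 had 142, 148 and 176 in Q libraries, against 341, 411 and 396 in V libraries (-1.30 ± 0.14). In all 4 the Q and V values were far apart, whereas S5 in the same windows had log2 fold changes of 0.22, -0.10, 0.08 and -0.38. In S5 0 of the 18 plus-strand windows passed the fold threshold, where 9.31% rose and 0.922% fell, and the highest value was 0.65 at rad15. By the adjusted p alone 2 of the 18 rose and 1 fell, against 29.1% and 20.6% of plus-strand windows. Over the whole mcm4 ORF window the H3K4me3 log2 fold change was 0.17 (adjusted p = 0.0442, limma) with overlapping groups.

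The DNA just before these starts is shown because the windows with the decrease lie on it. The sequences end at the base before the gene start annotated by RefSeq (ASM294v3), are cut where a neighbouring coding gene begins, and run 5′ to 3′ on the plus strand, for mcm4, orc1 and mcm5. Capitals mark matches, on either strand, to ACGCGT, the MCB motif bound by the cell cycle factor MBF, or GTAAACA, the forkhead motif.
mcm4, chrIII:900188-900387: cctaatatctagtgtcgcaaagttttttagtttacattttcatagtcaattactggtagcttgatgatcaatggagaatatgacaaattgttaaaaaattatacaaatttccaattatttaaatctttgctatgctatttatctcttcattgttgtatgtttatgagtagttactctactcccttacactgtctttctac
orc1, chrII:2570994-2571100: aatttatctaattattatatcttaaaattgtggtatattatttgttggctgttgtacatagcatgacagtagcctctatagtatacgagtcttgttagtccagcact
mcm5, chrI:2815496-2815660: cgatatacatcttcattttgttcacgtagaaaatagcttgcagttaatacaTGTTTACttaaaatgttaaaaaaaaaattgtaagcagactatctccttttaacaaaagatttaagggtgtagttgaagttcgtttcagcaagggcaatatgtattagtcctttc

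In the 200 bases before the annotated start, ACGCGT was found at 4 of 47 members, among them rad4, rad25 and ssb1, or 8.51%, and at 2.31% of 5112 coding genes. GTAAACA was found at 7 members, 14.9%, and at 12.5% of coding genes. Of the 4 genes called at their starts only mcm5 held a match. In their ORF windows rad4, rad25 and ssb1 had S5 log2 fold changes of 0.13, -0.45 and -0.11.

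At the ends of genes the direction of the H3K4me3 difference varied. For the 29 minus-strand members, whose TSS window covers the end, 13 rose and 5 fell, where 54.2% of minus-strand windows rose and 9.47% fell. These windows were then divided by the presence of another coding gene start. Of the 12 with no other coding gene start within 500 bp of their end, 10 rose and 0 fell, and the values ran from 0.97 at sld5 to 2.43 at rfc3; among all coding genes of this kind 78.9% rose and 1.07% fell. Of the 17 with such a start, 3 rose and 5 fell, against 24.2% and 18.0%. The distance of 500 bp was chosen after the values were seen.

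The 5 decreases, which include rad4, mcm3, ssb2 and rad16, were each beside the start of a neighbour. At the end of mcm3, whose neighbour qcr9 starts 180 bp away, H3K4me3 was 198, 240.2 and 290.1 in Q libraries, against 598, 629 and 542.5 in V libraries (-1.29 ± 0.36). At the end of rfc3, 3467 bp from any other coding gene start, it was 193, 182 and 150 in Q libraries, against 62.6, 24.9 and 19.7 in V libraries (2.43 ± 0.35). The rfc5, rfc4, orc5, psf3 and rad25 ends had log2 fold changes of 1.83 to 2.30. In Pol II S5 the end windows had 1 call, a decrease at psf3 (-1.08 ± 0.18), with 344, 321 and 299 in Q libraries against 738, 627 and 671 in V libraries; 5.70% of minus-strand windows rose and 2.06% fell. The end of rad9 was close behind, at -0.94.

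**Figure D4:**
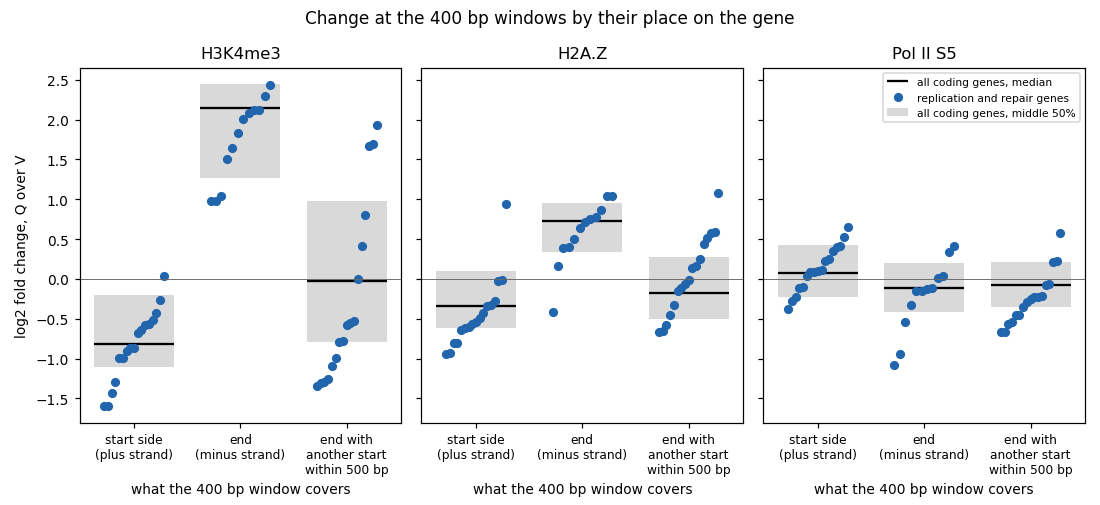
Log2 fold change of Q over V in the 400 bp windows for H3K4me3, H2A.Z and Pol II S5, by what the window covers: the start side of a plus-strand gene (17 members, rad3 being left out because another coding gene start lies within 500 bp), the end of a minus-strand gene (12), or such an end with another coding gene start within 500 bp (17). Grey boxes span the middle 50% of all coding genes and lines their median; the medians of the H3K4me3 members are -0.86, 1.92 and -0.58 in the 3 classes, and the lowest S5 value is that of psf3, -1.08.

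H2A.Z differed at most members by less than the fold threshold. In ORF windows 26 members rose and 15 fell by the adjusted p alone, where 38.3% and 38.9% of all windows did. Past the fold threshold 0 rose and 1 fell, against 1.17% and 1.47%. The member called was rad1, of the checkpoint clamp (chromosome I, 4978392 to 4978954, plus strand), with 303, 552 and 505 in Q libraries against 806, 950 and 941 in V libraries. Its log2 fold change was -1.03 ± 0.14 (adjusted p = 0.00196, limma). Q replicate 1 was the lowest library there, and the call is lost without replicate 1 (-0.84) and relative to H3 (-0.97).

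All 6 MCM genes rose in H2A.Z, from 0.21 at mcm6 to 0.56 at mcm2, each past the adjusted p. The window of mcm2 had 2507, 2082 and 2068 in Q libraries, against 1598, 1424 and 1468 in V libraries, without overlap. Without replicate 1 the 6 values ran from 0.16 to 0.52 and each still passed. All 3 RPA genes rose too (0.25 to 0.54), as did 4 of the 5 replication factor C genes, with rfc2 at -0.56. The 21 members with windows over 2000 bp had a median of 0.31, beside 0.27 over coding windows of that length. The largest increases were at the paralogous 14-3-3 genes, rad25 (0.91 ± 0.06) and rad24 (0.83 ± 0.10). The rad25 window had 1329, 1005 and 1002 in Q libraries, against 653, 550 and 561 in V libraries, and rad24 had 482, 437 and 460 against 314, 222 and 248. The groups were apart at both genes. Relative to H3, which rose at rad24, the value for rad24 was 0.09 and no longer passed, while that for rad25 was 0.92. In the 400 bp windows 14 of the 18 plus-strand members fell in H2A.Z by the adjusted p and 1, rad24, rose, against 51.2% and 25.5% of plus-strand windows. None passed the fold threshold (5.19% rose and 1.9% fell), with orc6 lowest at -0.95 and rad24 highest at 0.94. In the end windows 3 rose past it (rad52, orc5 and rfc5), where 11.5% of minus-strand windows did, and 0 fell (0.654%).

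The remaining marks gave no call at the members' ORF windows with limma, edgeR or DESeq2. For H3K9ac, 4 members had an unadjusted p below 0.05 and 0 passed the adjustment, as in all windows (0% higher and 0% lower past the fold threshold), with values between -0.37 at rad1 and 0.57 at rad25. For H3K9me2 it was 1 member, with 0.913% of windows called lower and 0.0152% higher, and members ran from -0.70 at rad50 to 0.35 at rad26. For H3, with 12 such members, the adjusted p alone was passed by rad24 (0.73), psf3 (0.57), orc1 (-0.33) and rad55 (-0.49), and 1.38% of windows rose and 0% fell past the fold threshold (8.81% and 2.92% by the adjusted p alone). Without replicate 1, 21 members fell in H3 by the adjusted p, where 23.4% of windows did. For rad24 H3 was 487, 497 and 509 in Q libraries, against 384, 283 and 246 in V libraries, without overlap, and S5 relative to H3 fell there by 1.12 (adjusted p = 0.0137, limma).

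H3K9me3, the mark of heterochromatin, had 26 members with an unadjusted p below 0.05. By the adjusted p alone 10 rose and 3 fell, against 11.1% and 5.35% of windows, and 0.0304% of windows rose and 0.639% fell past the fold threshold. The increases were between 0.32 and 0.48, at mcm3, mcm4, mcm5, mcm6, rfc1, rfc3, rad3, rad4, rad8 and rad54. Members with windows over 2000 bp had a median of 0.29, beside 0.18 over coding windows of that length. Those under 1000 bp had -0.30, beside -0.22. The decreases were at the recombination genes rad50 (-0.80), rad55 (-0.66) and rad52 (-0.43). Histone H3 in the rad55 window fell too (-0.49), and the rad50 window holds 7.04% of that gene. At rad50 the 3 Q libraries had 92.5, 80.6 and 78.5 reads, against 122, 138 and 187 in V libraries. None of the 13 passed without the replicate block, where 0% of windows did. Without replicate 3 the adjusted p was passed by 1 member, with an increase, where 2.49% of windows rose.

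Replication and repair genes with other names, from lists made for this comparison, were counted in the same way. Of 36 replication genes, such as polymerase subunits, 0 were called in S5, S2 or H2A.Z, and H3K4me3 rose at 7 and fell at 4, where 19.4% and 13.8% of all windows did. The 4 decreases were in windows with the 5′ part of the gene, and 4 of the 7 increases in windows with the 3′ part. The leading ones were swi1, of the fork protection complex (2.58), cdc24 (2.42), dpb2 (2.35) and dna2 (2.35), and the lowest were drc1 (-1.30), cdc17 (-1.25), the DNA ligase gene, mcb1 (-1.23) and spp2 (-1.22). Of 62 repair and checkpoint genes, H3K4me3 rose at 8, led by nse4 (2.35), msh1 (1.65), hus1 (1.47) and nbs1 (1.47), and fell at 7, led by ung1 (-1.82), the checkpoint kinase gene chk1 (-1.63), apn1 (-1.56) and rhp6 (-1.48), beside the same shares of all windows. The 7 decreases were in windows with the 5′ part, and 7 of the 8 increases in windows with the 3′ part. In S5 1 of these 62 fell, the histone H2A gene hta1 (-1.06), and 0 rose. The S5 medians were 0.00 for the first list and 0.15 for the second, against 0.00 for all windows.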

How the data were processed

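Cells were cross-linked and ChIP libraries were sequenced as single-end 36 bp reads. Per the submitters' processing notes and methods, bcl2fastq 2.20.0.422, BWA 0.7.17, SAMtools 1.17, deepTools 3.3.2 and DESeq2 were used with build ASM294v2, and Drosophila chromatin was spiked in; whether it entered the values is not stated in the sources available. The signal values are the authors' normalized read counts per window: in each deposited column 100% of values are whole reads divided by 1 constant, so the reads were recovered and served for edgeR and DESeq2. The deposited counts per library, as recovered, have a median of 7441339 over ORF windows and 1529819 over TSS windows. The deposited log2 fold changes and p-values of the authors' own comparison were not used. Every result is from limma 3.58.1 (R 4.3.3) on log2(value + 1) per antibody, with trend and with the replicate number as a block, since the study removed batch effects, over only the windows that reached 10 normalized reads in 3 or more of the 6 libraries. P-values were Benjamini-Hochberg adjusted over all such windows, and fold changes are on the log2(value + 1) scale. Replicates are the study's biological triplicates; the S5 and S2 fits keep all 3 Q libraries, and an alternative takes Q replicates 2 and 3 as 1.

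Same-numbered libraries deviated together in every pair only for H2A.Z and, in TSS windows, H3K9ac. The S2 TSS values were not used, because 1 of their columns equals a column of H3K9me2 in 6612 windows. Alternatives were edgeR 4.0.16, DESeq2 1.42.0, library totals, no filter, a pseudocount of 5, values relative to H3, no block, and each replicate left out. For values relative to H3, the test was the interaction of antibody and state. Named were, per antibody and window kind, called members up to 8 per direction, otherwise the members with the largest increase and decrease; other members were named after their values were seen. Members and lists were chosen with earlier results of these data known. The 2 input samples were not used. The script was tested on simulated data. Sequences, strands and neighbours are from RefSeq, ASM294v3. The values of 1 member and 1 upstream sequence are not reported here.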

Additional observations from a re-analysis of the deposited data

How the results depend on the processing

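Of the 224 recomputed counts of called members, 211 stayed within 1.5 times the value reported. Most of the reported counts were 0, and those that stayed at 0 are among the 211. The 211 therefore says little about the counts above 0. Of 354 recomputed log2 fold changes of named genes 352 kept their sign. Relative to H3, 2 members fell in S5 (psf3 and rad24), 1 in S2 (psf3) and 0 in H2A.Z in ORF windows. Among all ORF windows, 429 of 6580 fell in S5, 144 of 6579 in S2 and 214 of 6578 in H2A.Z. In plus-strand TSS windows 7 members fell in H3K4me3 and 1 in S5. Among TSS windows of both strands, 1670 of 6556 and 476 of 6557 did. With library totals 2 members fell in H2A.Z in ORF windows, where 148 of 6578 windows did. With single replicates left out, member decreases in ORF windows numbered 0 to 3 for H2A.Z, 0 to 1 for H3K9me3 and 5 to 9 for H3K4me3. Among all ORF windows the decreases numbered 26 to 210, 39 to 47 and 652 to 1068. In plus-strand TSS windows member decreases numbered 4 to 7 for H3K4me3 and 0 to 2 for H2A.Z. Among TSS windows of both strands the decreases numbered 1087 to 1637 and 38 to 162. The H3K4me3 TSS window of rad31, at 0.04, turned to -0.0485 with edgeR and, with single replicates left out, ran from -0.0242 to 0.113. The cause was not tested. Without the replicate block the same counts of members were called (6 and 6 for H3K4me3 in ORF windows, 1 for H2A.Z, 0 for S5 and S2). Among all ORF windows 1280 rose and 908 fell for H3K4me3, and 97 fell for H2A.Z. For S5 343 rose and 47 fell, and for S2 109 rose and 6 fell. By the adjusted p alone S5 had 12 member increases in place of 7, where 31.6% of windows rose. H3K9me3 had 0 in place of 10, where 0% of windows rose.

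The windows limit what can be read: a short ORF window over a spliced gene does not stand for that gene, and overlapping neighbours share reads. The likeness of the Q replicate 1 libraries across antibodies touches every comparison here, and its part in the values was not tested beyond leaving that replicate out. A total change per cell cannot be seen in relative values. Fewer cells with a mark and less of it per cell cannot be told apart.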
